A study of Arabidopsis thaliana with 8 samples.

Results

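Genes that build, modify or loosen the plant cell wall were followed in whole Arabidopsis thaliana plants of 2 lines, on 8 Affymetrix ATH1 arrays whose probe sets each summarise several short probes for a transcript. The genes were chosen by name: those with a probe set naming a single gene whose current symbol belongs to the families TBL, EXPA, EXPB, EXLA, XTH, CESA, CSLA to CSLG, PME, GAUT, IRX, COBL, FLA, AGP, EXT, GATL or PGX, and ECS1. Of 60 such genes, 8 were left out by position, because they lie in the intervals around the centromeres or in the chromosome 1 stretch between loci AT1G56720 and AT1G66100. This left 52 genes of the 13286 that a probe set names alone. They comprise 22 TBL genes, 11 expansins and expansin-like genes, 9 XTH genes, 5 CSL genes, IRX15, IRX15-L, GAUT15, PME61 and ECS1. No gene of the CESA, COBL, FLA, AGP, EXT, GATL or PGX families was matched, and those are not analysed here.

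The mutant line 15B was obtained from the other line with ethyl methanesulfonate (EMS), which makes point mutations across the genome. The other line, called the silenced parent here, is in the Landsberg erecta (Ler) background and carries an extra chalcone synthase (CHS) copy, homozygous at 1 insert, that silences TT4, the resident CHS gene, by homology. As a mutant of that line, 15B descends from plants with the same insert. The series title links the work to hog1, but no label names the gene altered in 15B or says whether 15B was backcrossed, so the groups are called by line. Each line has 4 arrays. The labels describe untreated plants at growth stage 1.04, stratified for 3 days at 4 degrees C and then grown at 22 degrees C under 18 h of light, on 0.7% agar containing 1% sucrose. Per the design text, RNA came from 10 plants pooled, with biological replication in 4 samples of a line.

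A growing plant cell is enclosed by cellulose fibres tied together by xyloglucan and other hemicelluloses in a matrix of pectin. Expansins loosen this network, and XTH enzymes cut and rejoin xyloglucan chains, so that the wall can stretch under turgor. CSL enzymes make the backbones of several hemicelluloses, TBL proteins add acetyl groups to wall polysaccharides, and GAUT and PME enzymes build and de-esterify pectin.

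Of the 52 genes, 32 had a mean signal of at least 30.0 over the 8 arrays and were tested. Signals are linear intensities, scaled by the authors so that the trimmed mean of every array lies at 100.0. In 15B, 1 of these 32 genes was higher and 3 were lower than in the silenced parent, and 28 did not pass (limma, Benjamini-Hochberg over all tested probe sets, threshold 0.05). The called share was 12.5%, against 6.70% of all 13822 tested probe sets. By direction, 3.13% of the genes were higher, against 3.13% of all tested probe sets, and 9.38% were lower, against 3.57%. The lower gene with the greatest change was ECS1, which was chosen by its own name and not through a family. As the genes were chosen with earlier results of these data known, these shares are a description only. The other calls, TBL26 (higher), TBL45 and XTH16 (both lower), had adjusted p-values between 0.0326 and 0.0449. An unadjusted p was under 0.05 for 6 of the 32 genes, against 21.5% of all tested probe sets. The lines did not overlap for 2 of the 32 genes (6.25%), ECS1 and TBL26, against 13.6% of all tested probe sets. The median difference of the 32 genes was -0.08 on the log2 scale, with 24 below 0, and that of all tested probe sets was -0.03, with 55.6% below 0. Without 1 array at a time the number of called genes was 2, 1, 1 and 2 for replicates 1 to 4 of 15B, and 3, 1, 1 and 2 for replicates 1 to 4 of the silenced parent. Of all tested probe sets, the fits without replicates 1 to 4 of 15B called 5.52%, 4.45%, 4.58% and 4.68%, and those without replicates 1 to 4 of the silenced parent called 7.07%, 4.54%, 3.71% and 6.16%. ECS1 was called in all 8 of these fits.

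**Figure D1:**
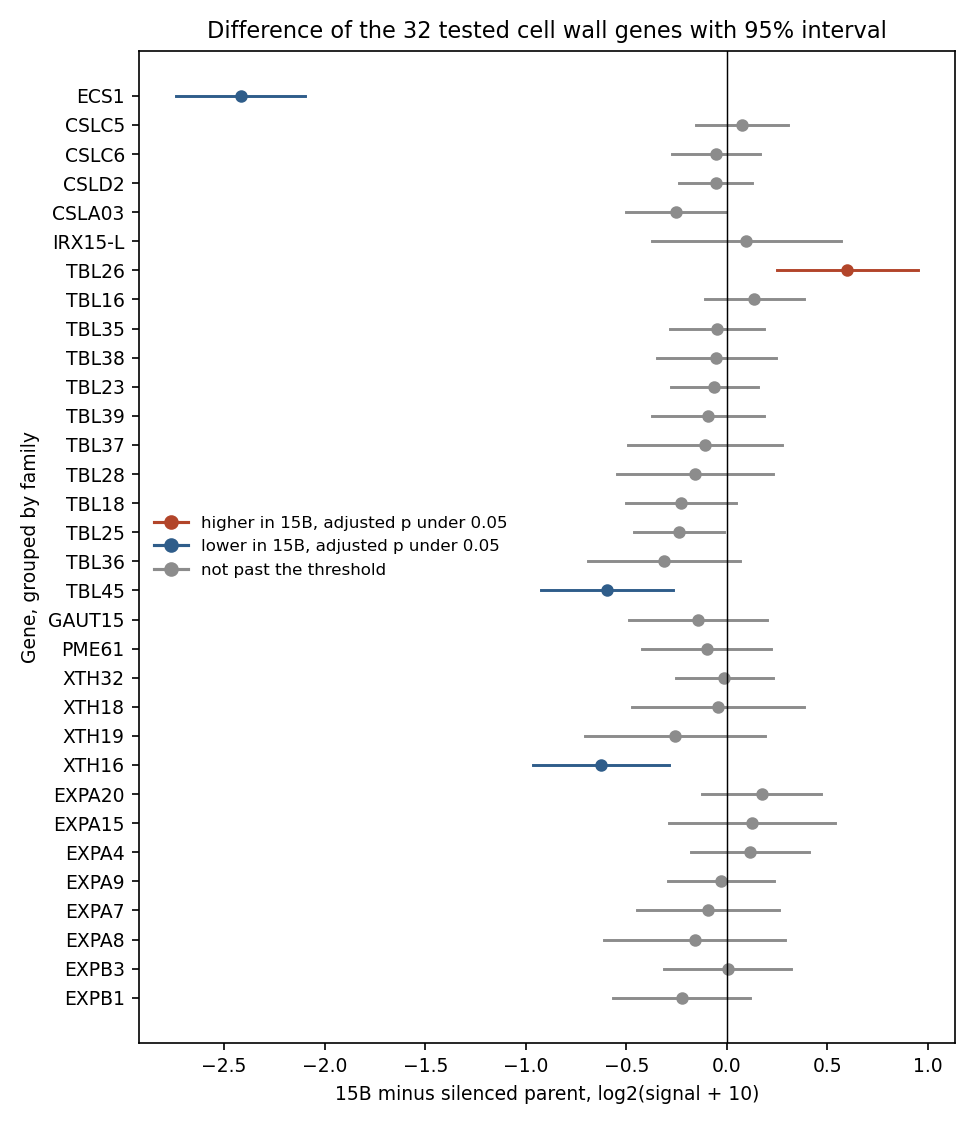
Difference between 15B and the silenced parent for each of the 32 tested cell wall genes, on the log2(signal + 10) scale, with points at the fitted value and bars for its 95% interval, grouped by family. ECS1 stands at -2.42, TBL26 at 0.60, TBL45 at -0.59 and XTH16 at -0.62, and the remaining 28 genes lie within 0.31 of 0.

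The scanner background given in the labels was 93.7 to 101 on the 15B arrays and 77.6 to 94.3 on 3 silenced parent arrays, with 198 on replicate 4. For actin, the signal toward the 3' end over that toward the 5' end, which rises as RNA degrades, was 5.24 ± 0.954 in 15B and 6.61 ± 1.43 in the silenced parent (SD, n = 4 each, exact permutation p = 0.143, two-sided, adjusted over 6 array measures 0.286). The same ratio for GAPDH was 1.72 in 15B and 1.94 in the silenced parent (exact permutation test, adjusted p = 0.514). For ubiquitin it was 3.07 and 3.50 (exact permutation test, adjusted p = 0.286). Whether the calls of single genes go with these ratios was not tested. The smallest p that 4 against 4 arrays allow is 0.0286. As whole plants were used, both leaf and root markers were present: all 7 photosynthesis markers and all 3 root markers were above the filter. PYK10, a root beta-glucosidase, averaged 2887 in 15B and 2894 in the silenced parent. The summed signal of the 7 photosynthesis markers was 16861 to 18083 in 15B and 16059 to 21068 in the silenced parent. Of these 7, only LHCB4.2, a light-harvesting protein gene, was called, as lower in 15B (log2 difference -0.35, limma adjusted p = 0.0483). The other 6 did not pass, at -0.16 to 0.01, and 6.70% of all tested probe sets were called. CLV3, a shoot meristem marker, and TRY, a trichome patterning gene, were below the filter, and markers of other cell types were not analysed here. In such bulk samples, fewer cells of a type and less RNA per cell cannot be told apart.

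ECS1 (AT1G31580, chromosome 1) encodes a small cell wall protein that was first studied in responses to the bacterium Xanthomonas campestris. Its signal was 401.8, 241.8, 255.6 and 269.8 in replicates 1 to 4 of 15B, against 1808.7, 1554.7, 1301.6 and 1674.5 in the silenced parent. Every 15B array lay far below every silenced parent array, and replicate 1 was the highest of its line in both. The difference was -2.42 on the log2(signal + 10) scale (SE 0.15, 95% interval -2.74 to -2.1, limma adjusted p = 2.31e-07), which is 0.187 times the silenced parent level. Leaving out each array gave -2.58 to -2.34. The rule on position includes ECS1 narrowly, since it lies 0.189 Mb outside the chromosome 1 interval. EXPA15, at 0.183 Mb from the chromosome 2 interval, was the only gene closer to an edge on the included side. The nearest gene on the excluded side was CSLC04, a xyloglucan glucan synthase gene 0.206 Mb inside the chromosome 3 interval, with signals of 208.6, 175.5, 201.6 and 214.3 in 15B and 191.6, 258.0, 295.5 and 269.1 in the silenced parent.

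The loci next to ECS1 were examined in gene order. Of the 10 nearest tested loci that a probe set names alone, 5 on each side, 2 were lower in 15B and 1 was higher. Here and for the other called genes, probe sets that name several genes or none were passed over. Limma called 6.70% of all tested probe sets, 3.57% as lower and 3.13% as higher. AT1G31440 was at -0.78 (limma adjusted p = 0.0125), AT1G31850 at -0.45 (0.0247) and AT1G31710 at 0.61 (6.23e-04) on the log2 scale. The differences of all 10 ranged from -0.78 to 0.61. Around TBL45 1 of 10 neighbours was called, AT2G29995 at -0.49 (limma adjusted p = 0.0337), against the same 6.70%. Around TBL26 and XTH16 limma called 0 of 10 in each case, and an unadjusted p was under the threshold for 0 and 3 neighbours, against 21.5% of all tested probe sets.

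**Figure D2:**
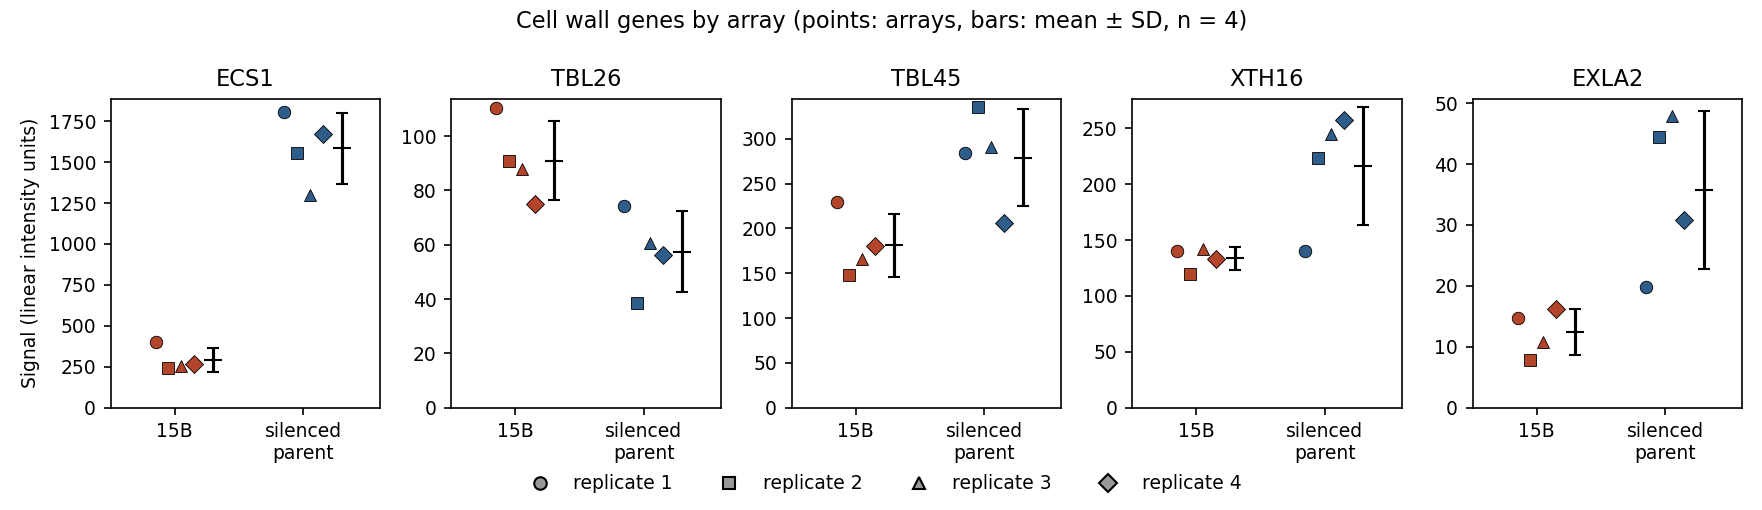
Signal of ECS1, TBL26, TBL45, XTH16 and EXLA2 on each array (linear intensity units), with 15B left of the silenced parent, a marker shape per replicate number, and bars for mean ± SD (n = 4). ECS1 lies between 241.8 and 401.8 in 15B and between 1301.6 and 1808.7 in the silenced parent, whereas XTH16 in replicate 1 of the silenced parent (140.3) lies among the 15B arrays.

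Acetylation of wall polysaccharides was represented by the 22 TBL genes, of which 12 were tested, 1 was higher in 15B, 1 was lower and 10 did not pass. The called share was 16.7%, against 6.70% of all tested probe sets, and rests on these 2 calls. TBL26 (AT4G01080) belongs to the mannan O-acetyltransferases with TBL23 and TBL25. TBL26 had a signal of 110.2, 90.9, 87.9 and 75.0 in 15B, against 74.4, 38.4, 60.5 and 56.3 in the silenced parent. The lines did not overlap, but the lowest 15B array and the highest silenced parent array were only 0.6 units apart. The log2 difference was 0.60 (SE 0.16, limma adjusted p = 0.0449). It did not pass without replicates 1, 2 or 3 of 15B or without replicates 2, 3 or 4 of the silenced parent, with differences of 0.45 to 0.63 and limma adjusted p from 0.0747 to 0.102. The related genes differed in sign from it: TBL25 was at -0.24 (95% interval -0.46 to -0.01, limma adjusted p = 0.207) and TBL23 at -0.06 (-0.28 to 0.15, adjusted p = 0.770).

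TBL45 (AT2G30010), whose substrate is not named here, had a signal of 229.7, 147.9, 166.1 and 180.5 in 15B, against 284.4, 335.4, 290.8 and 205.8 in the silenced parent. The lines overlapped through replicate 1 of 15B and replicate 4 of the silenced parent, and would not overlap without either one. The log2 difference was -0.59 (SE 0.15, limma adjusted p = 0.0355). It did not pass without replicates 2, 3 or 4 of 15B or without replicates 1, 2 or 3 of the silenced parent (-0.60 to -0.50, limma adjusted p from 0.0638 to 0.106), nor with median centring (adjusted p = 0.0564).

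The xylan acetyltransferase group was represented by TBL28, TBL30, TBL32, TBL34 and TBL35, which work on the xylan of secondary walls. Only TBL28 (log2 difference -0.16, 95% interval -0.55 to 0.23) and TBL35 (-0.05, -0.28 to 0.18) were above the filter. Limma called 0 of these 2 (6.70% over all tested probe sets), and an unadjusted p was under the threshold for 0 (21.5% over all tested probe sets). TBL28 and TBL30 are neighbours on chromosome 2. TBL30 was below the filter, at 30.3, 19.2, 20.9 and 19.3 in 15B and 26.4, 26.6, 34.8 and 36.5 in the silenced parent. TBL32 is measured by a probe set whose probes several sequences share, so its signal cannot be assigned to 1 gene. Among the other tested TBL genes, TBL36 averaged 242 ± 49.6 in 15B and 306 ± 72.3 in the silenced parent (SD, n = 4 each, log2 difference -0.31, 95% interval -0.69 to 0.07). TBL38, a pectin acetylesterase of the seed coat, averaged 73.6 ± 11.1 in 15B and 77.0 ± 14.4 in the silenced parent. The median of the 12 tested TBL genes was -0.10 on the log2 scale, with 2 above and 10 below 0. The chromosome 5 neighbours TBL19 and TBL21 were both below the filter, with no array above 18.5.

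The tested CSL, GAUT, IRX and PME genes, which serve the synthesis or modification of hemicelluloses and pectin, gave no calls. Of the 5 CSL genes 4 were tested, and limma called 0 of them, against 6.70% of all tested probe sets. An unadjusted p was under the threshold for 1, against 21.5% of all tested probe sets. CSLA03, of the mannan synthase family, had a signal of 53.6, 62.6, 67.7 and 64.2 in 15B, against 65.1, 90.0, 79.3 and 70.1 in the silenced parent. The lines overlapped by a small margin, and the log2 difference of -0.25 had an interval of -0.50 to -0.00 (limma adjusted p = 0.225). The xyloglucan backbone synthase genes CSLC5 (0.07, interval -0.16 to 0.30) and CSLC6 (-0.05, -0.27 to 0.16) lay close to 0. CSLD2, a synthase gene involved in root hair growth, averaged 147 ± 4.81 in 15B and 153 ± 11.5 in the silenced parent (SD, n = 4 each), with a log2 difference of -0.06 and an interval of -0.24 to 0.13. GAUT15, of the galacturonosyltransferase family of pectin synthesis, was at -0.14 (-0.49 to 0.20). PME61, a pectin methylesterase gene, was at -0.10 (-0.42 to 0.22). IRX15-L, which acts with IRX15 in xylan synthesis, was at 0.10 (-0.37 to 0.57). For GAUT15, PME61 and IRX15-L limma made 0 calls, where 6.70% of all tested probe sets were called. An unadjusted p was under the threshold for 0, where 21.5% of all tested probe sets had one.

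Xyloglucan remodelling was represented by 9 XTH genes, of which 4 were tested, 0 were higher in 15B, 1 was lower and 3 did not pass. The called share was 25%, against 6.70% of all tested probe sets, and rests on this 1 call. XTH16 (AT3G23730) had a signal of 140.4, 119.5, 142.1 and 133.0 in 15B, against 140.3, 223.5, 244.8 and 257.4 in the silenced parent. The 15B arrays were close together, and replicate 1 of the silenced parent lay among them while the other 3 silenced parent arrays were higher. The log2 difference was -0.62 (SE 0.16, limma adjusted p = 0.0326). Without replicate 1 of the silenced parent it was -0.81 (limma adjusted p = 3.03e-04). The call was lost without any 1 array of 15B or without replicates 2, 3 or 4 of the silenced parent, at -0.65 to -0.53 and limma adjusted p from 0.0517 to 0.103.

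The neighbouring genes XTH18 and XTH19, both expressed in roots, did not pass. XTH18 varied widely in 15B, with 32.6, 68.1, 80.4 and 51.4, and less in the silenced parent, with 54.5, 64.0, 48.5 and 64.7. XTH19 was lowest in replicate 1 of both lines, at 42.3 in 15B and 63.8 in the silenced parent, and its difference was -0.26 (95% interval -0.71 to 0.19). XTH32, from a clade with predicted xyloglucan hydrolase activity, averaged 158 ± 24.1 in 15B and 159 ± 15.6 in the silenced parent (SD, n = 4 each, log2 difference -0.01, interval -0.25 to 0.23). XTH21, a root-expressed gene below the filter, was at 1.6, 2.3, 1.8 and 3.2 in 15B and at 10.4, 2.6, 14.0 and 13.6 in the silenced parent. At such dim signals its difference in a fit with no filter, -0.68, did not pass (limma adjusted p = 0.0883). XTH26, a root hair gene, did not exceed 2.8 on any array.

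The expansins proper, 7 alpha-expansins and 3 beta-expansins, showed no difference between the lines past the threshold. Of the 8 tested, limma called 0, against 6.70% of all tested probe sets. At such a share, 0 calls among 8 genes do not set the expansins apart. An unadjusted p was under the threshold for 0 of them, against 21.5% of all tested probe sets. Their log2 differences ranged from -0.22 (EXPB1) to 0.17 (EXPA20), with a median of -0.01 and 4 on each side of 0. The widest interval limits among them were -0.61 (EXPA8) and 0.54 (EXPA15), which bound the differences that 4 arrays a line leave possible. EXPA4 averaged 204 ± 30.9 in 15B and 188 ± 33.4 in the silenced parent (SD, n = 4 each), with an interval of -0.18 to 0.41. EXPA8 averaged 154 ± 38.1 in 15B and 177 ± 53.7 in the silenced parent. EXPA7, which acts in root hair growth, averaged 39.2 ± 8.42 in 15B and 42.6 ± 9.75 in the silenced parent. Its close relative in root hairs EXPA18, one of the genes left out by position, was at 0.08 (-0.18 to 0.35).

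Several expansins varied together between arrays within the lines. EXPA15 had 210.1, 171.0, 136.0 and 102.0 in 15B and 178.0, 108.7, 127.4 and 139.8 in the silenced parent. EXPB3 had 200.5, 153.6, 129.2 and 123.1 in 15B and 178.2, 127.8, 135.7 and 156.6 in the silenced parent. In both genes replicate 1 was the highest and, of the remaining arrays, replicate 4 of 15B and replicate 2 of the silenced parent were the lowest. Over the 8 tested expansins, replicate 1 held the highest value of the line for 6 genes in 15B and for 5 in the silenced parent, and the lowest for 0 in both. Over all tested probe sets replicate 1 held the highest value in 28.5% in 15B and in 25.8% in the silenced parent. The actin ratio of 3' over 5' signal was 4.26, 4.77, 5.44 and 6.47 in replicates 1 to 4 of 15B. In the silenced parent it was 6.56, 8.28, 6.81 and 4.79, where replicate 1 did not have the lowest ratio. What the spread of the expansins within the lines reflects, RNA quality included, was not tested.

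**Figure D3:**
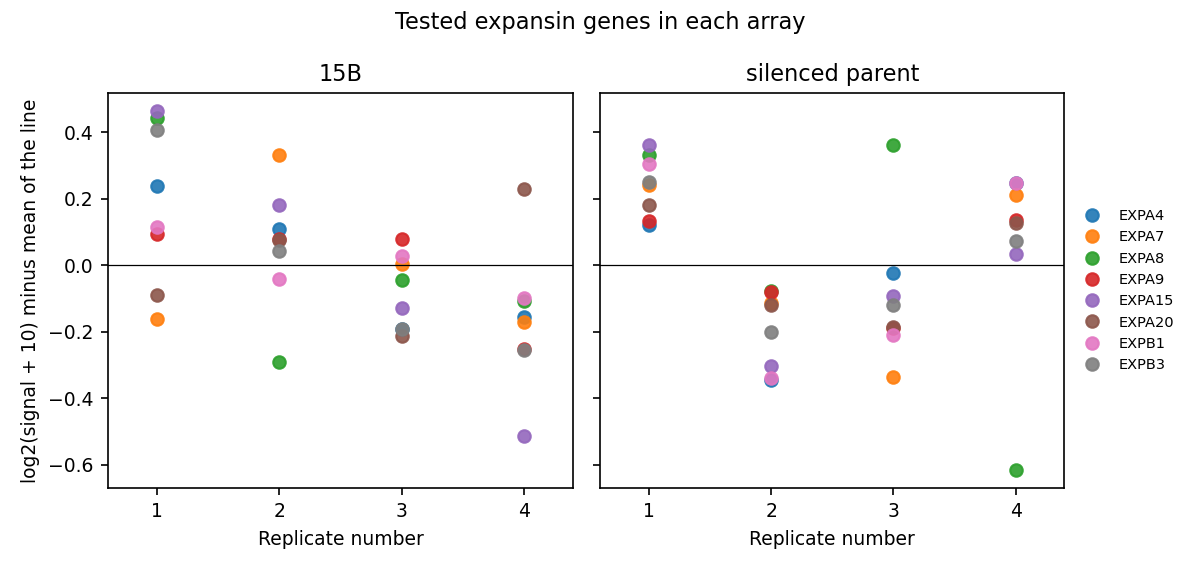
Deviation of each of the 8 tested expansin genes from the mean of its line, on the log2(signal + 10) scale, for replicates 1 to 4 of 15B (left) and of the silenced parent (right), with 1 colour per gene. Replicate 1 lies highest for 6 of the 8 genes in 15B and for 5 of the 8 in the silenced parent.

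The expansin-like A genes are related to expansins by sequence. EXLA2 (AT4G38400) had a mean of 24.1 over the 8 arrays, under the filter. Its signal was 14.7, 7.9, 10.7 and 16.2 in 15B, against 19.8, 44.5, 47.9 and 30.8 in the silenced parent. The lines did not overlap, and replicate 1 was the lowest silenced parent array. In a fit with no filter, in which 3.65% of 22746 probe sets were called, its log2 difference was -1.0 (95% interval -1.50 to -0.50, limma adjusted p = 0.0366). That call was lost without any 1 array of 15B or without replicates 2, 3 or 4 of the silenced parent (-1.08 to -0.87, limma adjusted p from 0.0560 to 0.109). EXLA1 (AT3G45970) was left out by position, 0.404 Mb inside the chromosome 3 interval. It had 46.7, 61.6, 73.4 and 97.3 in 15B and 67.1, 274.3, 173.0 and 235.5 in the silenced parent, where replicate 1 lay among the 15B arrays. Its difference of -1.19 (SE 0.33) did not pass (limma adjusted p = 0.0527), and without replicate 1 of the silenced parent it was -1.59 (adjusted p = 5.43e-04). Leaving out each array in turn gave -1.59 to -0.96, with limma adjusted p up to 0.141. EXLA3, its neighbour, stayed below the filter and did not exceed 14.3 on any array.

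Altogether 20 of the 52 genes were below the filter, with means between 1.86 and 28.8. These were 10 TBL genes, 5 XTH genes, 3 expansins and expansin-like genes, CSLA01 and IRX15. The lines overlapped for 19 of the 20, all except EXLA2, and over all 22746 probe sets with no filter they did not overlap for 10.5%. The fit with no filter called EXLA2 and ECS1 out of the 52, and 3.65% of all 22746 probe sets. At the filter limit, PME61 had a mean of 30.8 just above it and CSLA01 one of 28.8 just below it. CSLA01, a mannan synthase family gene, was at 29.8, 35.0, 36.5 and 31.4 in 15B and at 35.1, 22.3, 22.3 and 17.6 in the silenced parent. IRX15 was at 13.9, 13.9, 9.9 and 2.7 in 15B and at 2.4, 1.7, 3.1 and 8.9 in the silenced parent, and the lines overlapped.

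Other genes of wall synthesis, wall sensing and growth control were listed by symbol, giving 44 probe sets, of which 23 were tested. In 15B 1 of these was higher, 4 were lower and 18 did not pass, a called share of 21.7% against 6.70% of all tested probe sets. Among these calls, PRX52 in the silenced parent and IAA29 in 15B had means under the filter level. Each was therefore tested through its level in the other line, and the share rests in part on them. With a filter of 60, which leaves both out, 3 of 17 tested genes were called. An unadjusted p was under 0.05 for 11 of the 23, against 21.5% of all tested probe sets. The lines did not overlap for 4 of the 23 (17.4%), RALFL32, PRX52, RALFL27 and IAA18, against 13.6% of all tested probe sets. Of 8 tested wall sensing genes 2 were lower (25%, against 3.57% of all tested probe sets). An unadjusted p was under 0.05 for 5 of the 8. RALFL32, which encodes a peptide of the RALF family that signals through wall-bound receptor kinases, had 78.4, 80.5, 79.0 and 75.4 in 15B, against 113.4, 116.2, 139.7 and 101.8 in the silenced parent. The lines did not overlap (log2 difference -0.52, SE 0.10, limma adjusted p = 0.00757), and the call held without each array (limma adjusted p up to 0.0266). THE1, a receptor kinase that senses impaired cellulose synthesis, had 117.4, 115.0, 145.2 and 128.2 in 15B, against 141.2, 198.4, 246.1 and 195.3 in the silenced parent. Its lines overlapped through replicate 3 of 15B and replicate 1 of the silenced parent, and would not overlap without either one (log2 difference -0.57, SE 0.14, limma adjusted p = 0.0310). FER, the receptor kinase FERONIA, was at -0.15 (95% interval -0.33 to 0.02, limma adjusted p = 0.295), and RALFL33 at -0.42 (-0.69 to -0.15, adjusted p = 0.0658). RALFL34 averaged 646 in 15B and 600 in the silenced parent. It alone lay above 0 among the 8, at 0.11 (-0.10 to 0.31, limma adjusted p = 0.559).

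Of 4 tested growth regulator genes 2 were lower in 15B (50%, against 3.57% of all tested probe sets). An unadjusted p was under 0.05 for all 4, against 21.5% of all tested probe sets. IAA29, an auxin response repressor gene that auxin and shade induce, had 14.4, 16.7, 32.6 and 29.3 in 15B, against 25.6, 106.3, 116.1 and 86.2 in the silenced parent. HAT2, an auxin-induced homeodomain transcription factor gene, had 106.5, 94.7, 96.8 and 134.4 in 15B, against 121.8, 325.8, 260.2 and 198.9 in the silenced parent. In both genes 3 silenced parent arrays lay well above all 15B arrays, and replicate 1 of the silenced parent lay among the 15B arrays. The log2 differences were -1.38 for IAA29 (SE 0.34, limma adjusted p = 0.0307) and -0.93 for HAT2 (SE 0.23, adjusted p = 0.0292). The mean of IAA29 in 15B, 23.3, was under the filter level, so it was tested through its level in the silenced parent. Without replicate 1 of the silenced parent they were -1.80 (limma adjusted p = 1.99e-04) and -1.19 (8.46e-04). BIM1, a partner of the brassinosteroid response factors, was at -0.35 (95% interval -0.62 to -0.09, limma adjusted p = 0.103) and IAA18 at -0.22 (-0.40 to -0.05, adjusted p = 0.128). The calls of THE1, HAT2 and IAA29 were each lost without replicates 1 or 2 of 15B or without replicates 2, 3 or 4 of the silenced parent. THE1 also lost its call without replicate 4 of 15B and HAT2 without replicate 3. Limma adjusted p for these losses ran from 0.0509 to 0.0982.

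PRX52, a class III peroxidase gene involved in lignification of stem fibres, was the only one of the list that was higher in 15B. Its signal was 46.5, 69.3, 80.0 and 63.8 in 15B, against 17.7, 16.2, 17.4 and 23.0 in the silenced parent, with no overlap (log2 difference 1.38, SE 0.15, limma adjusted p = 1.14e-04). Its mean over the silenced parent, 18.6, was under the filter level, so it was tested through its level in 15B. Of 8 tested glycosidase and related genes limma called 0, against 6.70% of all tested probe sets. An unadjusted p was under the threshold for 1 of these 8, against 21.5% of all tested probe sets. That gene was COB, which encodes a surface protein needed for oriented cellulose deposition, at -0.21 (95% interval -0.39 to -0.03, limma adjusted p = 0.168). The endoglucanase genes GH9B7 and GH9B8 were at -0.11 and 0.23. ALDH2C4, which makes ferulic acid for the wall, was at 0.12 and GER2, of GDP-fucose synthesis, at -0.01, and neither passed.

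**Figure D4:**
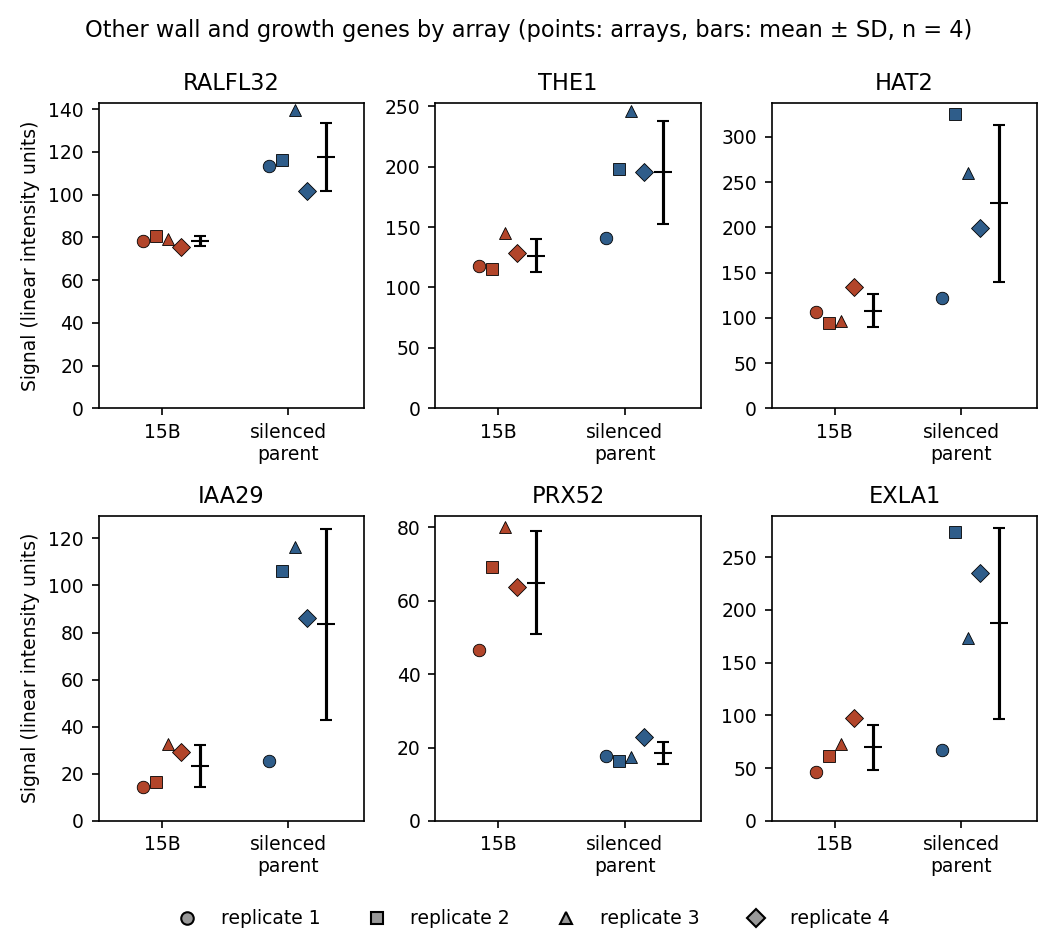
Signal of RALFL32, THE1, HAT2, IAA29, PRX52 and EXLA1 on each array (linear intensity units), with 15B left of the silenced parent, a marker shape per replicate number, and bars for mean ± SD (n = 4). In HAT2, IAA29 and EXLA1 replicate 1 of the silenced parent (circle) lies among the 15B arrays, whereas all PRX52 values in 15B (46.5 to 80.0) lie above those in the silenced parent (16.2 to 23.0).

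Among the other wall genes, replicate 1 of the silenced parent was the array whose removal separated the lines for the most genes. Without it, genes whose lines otherwise overlapped no longer did so for 7 of the 23 other wall genes (30.4%), including FER, BIM1 and RALFL33, against 6.17% of all tested probe sets. Leaving out 1 array of 15B instead also separated the lines for THE1, HAT2, RALFL33 and ALDH2C4. For the 32 tested cell wall genes this held for 2 (6.25%), CSLA03 and XTH16, a count that replicates 3 and 4 of 15B and replicate 4 of the silenced parent also gave. Of the 3 tested genes left out by position it held for CSLC04 and EXLA1. In all 6 array measures (background, noise, outlier cells and 3 ratios of 3' over 5' signal) this array lay within the range of the other 7, and what its values reflect was not tested.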

How the data were processed

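The deposited table holds linear intensity values of 22810 probe sets on each of 8 arrays. The authors had brought every array to a 2%-trimmed mean of 100.0, so a change is measured against the average probe set. Which software summarised the probes, and with what background correction, was not given in the sources used here. The labels' protocols describe biotin-labelled cRNA from total RNA. The 64 control probe sets were left out. Values were used as log2(value + 10), and probe sets with a mean under 30.0 over the 8 arrays were not tested. A fold on this scale understates changes of dim genes.

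The comparison used limma 3.58.1 under R 4.3.3 (eBayes with intensity trend, two-sided, Benjamini-Hochberg over 13822 probe sets). Intervals are 95% intervals of that fit. Precision is limited by the number of arrays. Gene names came from the 2016 platform annotation, updated by Entrez number to the RefSeq table of TAIR10.1. Of 13513 probe sets naming 1 gene, 13436 were found; 503 name several and 8730 are unnamed. Positions served only for the choice of genes, gene order and distance to the intervals. Levels of different probe sets were ranked only to choose which genes to name.

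The genes and lists were chosen with earlier results of these data known. Named are all called genes, and in each family the 2 tested genes with the highest signal, with related or neighbouring genes added after their values were seen. The pre-mRNA splicing genes PRP39 and PRP39-2, caught by symbol in the other list, were dropped. Nucleotide sugar, callose and further pectin lists had 1, 0 and 0 matches. The planned search for promoter motifs was not run, since no sequences were used here. No pair of arrays shared more than 0.958% of its values. On simulated data for this comparison (13822 probe sets, normal noise), 28 of 50 planted changes of 0.5, 48 of 50 of 1, 49 of 50 of 2 and 50 of 50 of 4 on the log2 scale were recovered, with 9 false among 184 calls. Alternatives were other scalings, pseudocounts, filters, variance models, thresholds, array weights, only _at probe sets, the replicate number as a block and leaving out each array.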

Additional observations from a re-analysis of the deposited data

Results flagged for a closer look

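Of 88 sets of 4 values, 5 had 1 array far from the remaining 3. About 1 in 20 sets would be so by chance. TBL16 was at 56.3 in replicate 1 of 15B, against 64.8 to 65.9 in the other 15B arrays. EXPA9 was at 43.9 in replicate 4 of 15B, against 57.8 to 58.6 in the others. Neither gene was called in any of the 8 fits that left out an array. For replicate 4 of the silenced parent the labels give a background of 198, where its line otherwise ranged over 77.6 to 94.3, and a noise of 13.5, where it otherwise ranged over 3.91 to 5.15. Outlier cells numbered 1353 on replicate 2 of 15B and 403 to 505 on the rest of that line.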

How the results depend on the processing

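ECS1 kept its direction and its call under all 20 alternatives (log2 difference -2.58 to -2.34, limma adjusted p up to 5.44e-06). No called gene changed direction. The 4 called cell wall genes became 2 with no filter, 2 without the intensity trend and 1 at an adjusted p under 0.01, and leaving out each array gave 1 to 3, with fewer arrays. The 2 called TBL genes became 1 with median centring and 0 with no filter, without the trend or at an adjusted p under 0.01, and 0 to 1 with each array left out. The 1 called XTH gene became 0 with no filter or at an adjusted p under 0.01, and 0 to 1 with each array left out. The 0 called expansins and expansin-like genes became 1 with no filter (EXLA2). The 5 called other wall genes became 2 with no filter, 3 with a filter of 60 (which leaves out PRX52 and IAA29), 3 with robust eBayes and 2 at an adjusted p under 0.01, and 2 to 7 with each array left out. Where not given by fewer arrays or another number of tested genes, the cause was not tested. Over all probe sets 926 changed, 830 of 22746 with no filter, 1225 with array weights, 392 at an adjusted p under 0.01 and 513 to 977 with each array left out. Combining no filter with the other alternatives was chosen after seeing the data, and EXLA2 then passed in 8 of 16. Adding the replicate block to the fit, 1078 probe sets, 4 cell wall genes and 6 other wall genes were called, EXLA1 and RALFL33 passed (adjusted p = 0.0044 and 0.0218), and EXLA2 with no filter did not (0.0758). The residual correlation between arrays of the same number was 0.25, -0.01, 0.05 and 0.05 for replicates 1 to 4, not above 0.1 for every pair, so the numbers were not treated as pairs. Whether same-numbered arrays shared a day or batch was not tested.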
